A study of Danio rerio with 4 samples.

Results

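The clustered protocadherins are the isoform-diverse cadherins that lie side by side in a pair of gene clusters of the zebrafish genome. Members were picked by symbol, as every gene whose name on the array starts with pcdh1a, pcdh1g, pcdh2a or pcdh2g. The group itself was chosen with earlier results of these data known. The array held 31 such genes of 19497 named genes, read by 55 array features of 43603. Subcluster 1a had 1 gene on the array, 1g had 12, 2a had 7 and 2g had 11, and 10 of the 31 genes were read by more than 1 feature.

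The study compared zebrafish mutant for macrophage stimulating protein (Msp, the ligand encoded by mst1) with wild types of the same strain, wik. The groups were Msp mutant and wild-type whole embryos at 3 dpf, and Msp mutant and wild-type whole embryos at 6 dpf (days post fertilization), all untreated and raised at 28 °C in E3 medium. Each group was 1 RNA pool of 30 embryos from crosses of that genotype, and the mutant allele was not named in the labels. Mutant and wild-type RNA of a stage were hybridised together on 2 two-colour Agilent arrays, with Cy5 on the mutant on array 1 and Cy3 on the mutant on array 2. The labels give a dye swap but do not state that both arrays of a stage carry the same RNA extracts. The arrays of a stage were treated as repeated labelling of the same pools, and the spread between them as technical. No replicate pool exists within a stage, so genotype and the pools' own clutches cannot be told apart within a stage, and whole-embryo RNA cannot tell fewer expressing cells from less RNA per cell.

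Clustered protocadherins are adhesion molecules of neurons that bind the identical isoform on another membrane. Each isoform starts at its own promoter, whose variable exon encodes the extracellular cadherin repeats and the membrane span. That exon is spliced to constant exons shared by the whole subcluster, which encode the common cytoplasmic end. In mouse, single neurons choose few isoforms, CTCF and cohesin take part in that choice, and the resulting surface identity serves self-avoidance of branches and synaptic matching. Zebrafish carry a pair of clusters, pcdh1 and pcdh2, each with an alpha and a gamma subcluster. No file used here gave the place of a feature within its gene, so a feature in a shared constant exon, which would read every isoform of its subcluster, could not be told from a feature in a variable exon.

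All values are log2 ratios of mutant over wild type with the sign turned on array 2, unless a sentence says that it gives a signal or a change with age. A feature was kept if some pool gave a signal flagged as well above background on each of its 2 arrays, which left 31046 features, among them 52 of the 55 protocadherin features. The 3 left out were the only features of pcdh1g11 and pcdh2ab1 and 1 of the 3 features of pcdh2g12, so 29 genes remained. Of the 55, 47 were that bright in all 4 pools. Median spot signals were 146.5 to 154 in green and 167 to 187 in red, and median backgrounds 47.5 to 49 and 87 to 87.5. The mutated gene mst1 read lower in the mutant on every array, at -0.70 and -0.61 at 3 dpf and -1.01 and -1.24 at 6 dpf, and was called lower over both stages by limma (mean -0.89, adjusted p = 0.0261).

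At 3 dpf the clustered protocadherins stood higher in the mutant pool as a group. Of the 52 kept features, 43 were above 0 on both arrays, where 29.4% of all features were, and 2 were below 0 on both, where 28.6% of all features were. Among the 43, the features of pcdh1g1 and pcdh1g2 passed the filter only through mutant pools, that of pcdh1g2 only through the one at 3 dpf. Neither is read as support. The median ratio of the 52 features was 0.29, a 1.23-fold difference, against 0.01 for all features, and they ranged from -0.21 to 2.25. The shift was present in each of the larger subclusters, with medians of 0.25 for 1g (18 features), 0.33 for 2a (15 features) and 0.28 for 2g (17 features).

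At 6 dpf the group lay on both sides of 0. Of the 52 features, 23 (44.2%) were above 0 on both arrays, where 27.6% of all features were. Below 0 on both were 17 (32.7%), near the 27.3% of all features, and the median was 0.04. In subcluster 2a, 14 of 15 features had a mean above 0, where 15722 of all 31046 features had. Of the 15, 8 were above 0 on both arrays, 5 of them features of the single gene pcdh2ac. The median of 2a was 0.07 and its lowest value -0.04. Subcluster 2g had a median of -0.11 and ran from -0.33 to 0.73, and 1g had a median of -0.0023 and ran from -0.69 to 1.91. Over all 4 arrays, 20 features were above 0, where 12.2% of all features were. These features are not 20 separate genes, as 5 were of pcdh2ac and 4 of pcdh2g28. The features of pcdh2g29, which may share sequence with pcdh2g28, and of pcdh1g1, kept only through the mutant, were also among them.

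**Figure D1:**
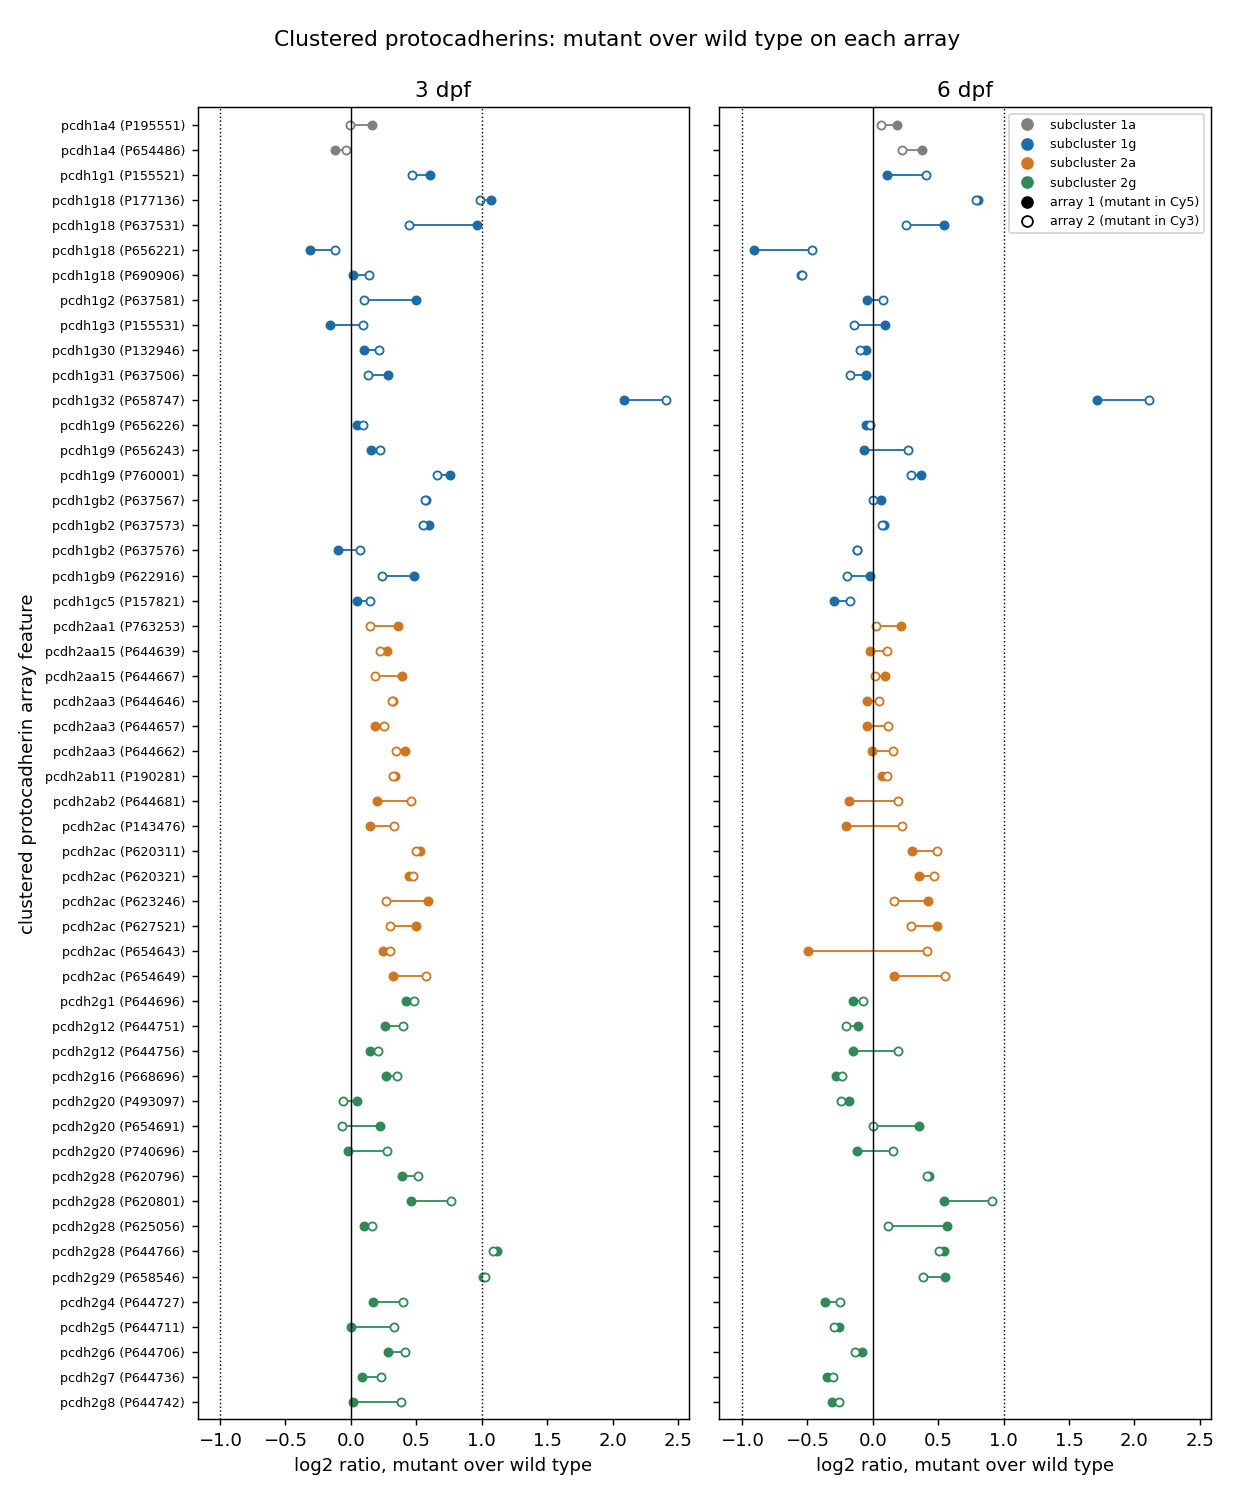
Log2 ratio of mutant over wild type (x axis) for each of the 52 kept clustered protocadherin features (y axis) at 3 dpf (left) and 6 dpf (right). Filled points are array 1 and open points array 2, joined by a line, with dotted lines at 1 and -1; nearly all points lie right of 0 at 3 dpf, and those of most 2g features lie left of 0 at 6 dpf.

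Within a stage no test was possible, and a feature was said to pass the size rule when its mean ratio was at least 1 or at most -1, both arrays were past 0.5 in that direction, and the higher genotype cleared the background on each array. At 3 dpf 4 protocadherin features passed with the mutant higher, where 0.132% of all features did, and 0 passed with the mutant lower, where 0.171% did. These were features of pcdh1g32, pcdh1g18, pcdh2g28 and pcdh2g29, of which those of pcdh2g28 and pcdh2g29 may read shared sequence. At 6 dpf 1 feature passed with the mutant higher (0.219% of all features), that of pcdh1g32, and 0 with the mutant lower (0.271%).

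The gene pcdh1g32, a gamma isoform of cluster 1 read by 1 feature, differed most. Its raw spot signal at 3 dpf was 158 in the wild type and 830 in the mutant on array 1, and 192 against 609 on array 2. At 6 dpf it was 185 against 729 on array 1, and 238.5 against 678.5 on array 2. After background correction and scaling, the log2 signals at 3 dpf were 7.13 and 6.86 in the wild type and 9.21 and 9.27 in the mutant. At 6 dpf they were 7.77 and 7.60 in the wild type and 9.48 and 9.71 in the mutant. Both mutant pools thus lay above both wild-type pools on every array, with no overlap, and the wild-type pool at 6 dpf stayed below the mutant pool at 3 dpf. Within a stage, the size rule that picked this feature nearly required such a separation. The ratio was 2.25 ± 0.23 at 3 dpf (SD, n = 2 arrays), or 4.75-fold, and 1.91 ± 0.28 at 6 dpf, or 3.76-fold.

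The excess of pcdh1g32 was not shared by the genes listed beside it. In the gene order of the RefSeq table of assembly GRCz12tu, pcdh1g32 is the last gene of cluster 1, after pcdh1g30 and pcdh1g31. The single feature of pcdh1g31 had ratios of 0.29 and 0.13 at 3 dpf and -0.05 and -0.17 at 6 dpf. That of pcdh1g30 had ratios of 0.10 and 0.21 at 3 dpf and -0.05 and -0.10 at 6 dpf. Earlier in the same gene order, before pcdh1g30, pcdh1gc5, a C-type gamma isoform by its symbol, had a mean of 0.10 at 3 dpf and -0.23 at 6 dpf.

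**Figure D2:**
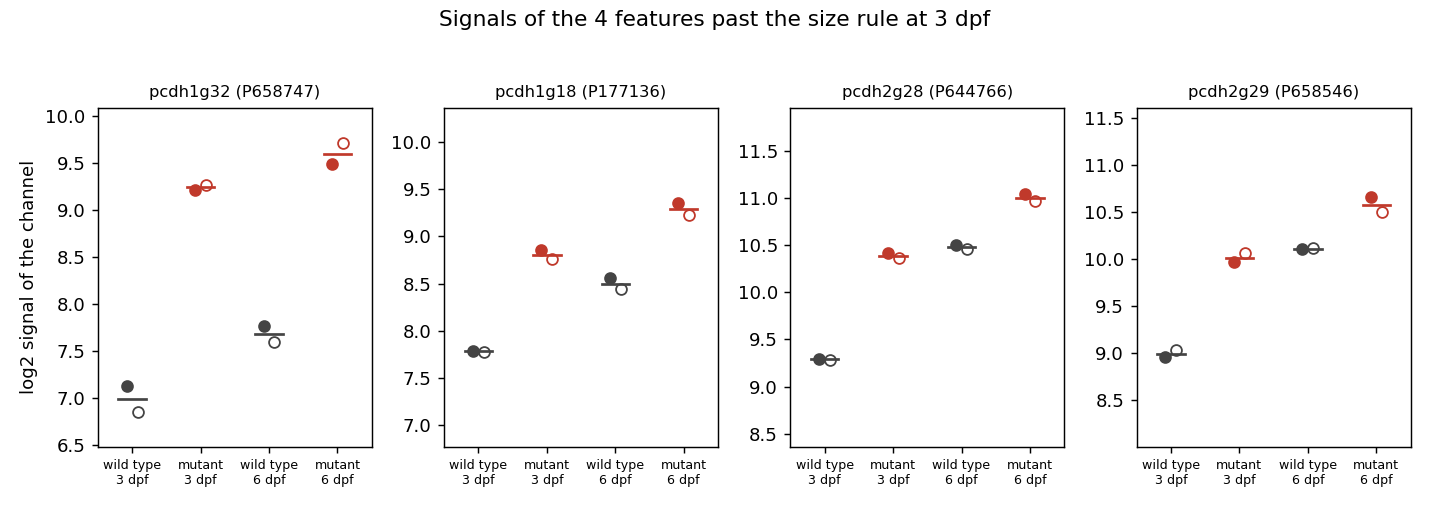
Log2 signal of each channel (y axis, 1 panel per feature, each spanning the same log2 range) in the 4 pools (x axis) for the 4 features past the size rule at 3 dpf. Filled points are array 1, open points array 2 and lines their mean; the mutant lies above the wild type at both stages in each panel, and every pool is higher at 6 dpf than at 3 dpf.

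The gene pcdh1g18, another gamma isoform of cluster 1, gave opposite answers on its 4 features. Feature A_15_P177136 read 1.07 and 0.98 at 3 dpf and 0.80 and 0.79 at 6 dpf. Feature A_15_P637531 read 0.96 and 0.44 at 3 dpf and 0.54 and 0.25 at 6 dpf. These features were higher in the mutant on all 4 arrays. Feature A_15_P656221, the only one of the 4 tied to a different transcript accession than the others, read -0.31 and -0.12 at 3 dpf and -0.91 and -0.46 at 6 dpf, lower in the mutant on all 4 arrays. Feature A_15_P690906 read 0.02 and 0.14 at 3 dpf and -0.55 and -0.54 at 6 dpf. The means of the 4 features spanned 1.24 at 3 dpf and 1.48 at 6 dpf, above the largest SD between arrays of any of them, 0.37, so no single level of pcdh1g18 can be given.

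The genes pcdh2g28 and pcdh2g29, gamma isoforms of cluster 2, were higher in the mutant on every array. The feature A_15_P644766 of pcdh2g28 had a log2 signal at 3 dpf of 9.30 and 9.28 in the wild type and 10.41 and 10.36 in the mutant. At 6 dpf it had 10.498 and 10.460 in the wild type and 11.04 and 10.97 in the mutant. Within a stage the readings of the mutant pool lay above those of the wild-type pool. At 3 dpf the size rule that picked this feature nearly required that. The wild-type pool at 6 dpf lay slightly above the mutant pool at 3 dpf. Its ratio was 1.12 and 1.08 on the arrays of 3 dpf (SD 0.02, n = 2 arrays), or 2.14-fold, and 0.53 ± 0.03 at 6 dpf. The feature of pcdh2g29 had 1.01 ± 0.01 at 3 dpf and 0.47 ± 0.12 at 6 dpf, close to that of pcdh2g28 at each stage. The RefSeq table places pcdh2g28 and pcdh2g29 on the same interval, so these 2 features may read shared sequence. The counts of features in this report hold them as 2, although they may not be separate evidence. The other 3 features of pcdh2g28 had means of 0.13, 0.45 and 0.61 at 3 dpf and 0.34, 0.42 and 0.73 at 6 dpf, and all 4 were above 0 on all 4 arrays.

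Genotype was tested with limma over the mean ratios of the stages, so the test takes the 3 dpf and 6 dpf pools as the replicates and has 1 residual degree of freedom beside the spread it borrows from all features. It called 4 protocadherin features higher in the mutant, where it called 0.673% of all features, and 0 lower, where it called 0.873%. At an unadjusted p under 0.05 it had 16 protocadherin features higher and 1 lower, A_15_P656221 of pcdh1g18. In either direction, 4232 of all 31046 features had such a p. Several of the 16 were features of the same gene, as of pcdh2ac and of pcdh2g28, and pcdh1g1 was among them. The calls were pcdh1g32 (mean 2.08, SE 0.10, adjusted p = 0.002), pcdh1g18 A_15_P177136 (mean 0.91, SE 0.09, adjusted p = 0.00918) and 2 features of pcdh2g28. For pcdh2g28, A_15_P620801 had a mean of 0.67 (SE 0.08, adjusted p = 0.0164) and A_15_P644766 a mean of 0.81 (SE 0.14, adjusted p = 0.0498). The feature of pcdh2g29 stayed just outside (mean 0.74, adjusted p = 0.057), as did A_15_P620796 of pcdh2g28 (mean 0.44, adjusted p = 0.051). All 4 calls were lost when limma let the borrowed spread follow the signal level, a setting under which it called 0 of all 31046 features while 4340 had an unadjusted p under 0.05.

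The alpha isoforms of cluster 2 were read by 15 kept features, of which 7 were of one gene. The gene pcdh2ac, the C-type alpha isoform by its symbol, had a mean above 0 on all 7 at 3 dpf and on 6 at 6 dpf, with 5 above 0 on all 4 arrays. Of all 31046 features, 16065 had a mean above 0 at 3 dpf and 15722 at 6 dpf, and 12.2% were above 0 on all 4 arrays. The median of the 7 features of pcdh2ac was 0.43 at 3 dpf and 0.36 at 6 dpf. Feature A_15_P620311 read 0.53 and 0.50 at 3 dpf and 0.30 and 0.49 at 6 dpf (mean 0.45, adjusted p = 0.0518 by limma). Feature A_15_P620321 read 0.44 and 0.48 at 3 dpf and 0.35 and 0.47 at 6 dpf (mean 0.43, adjusted p = 0.0527). None of the 7 passed the test. The brightest of the 7, A_15_P654643, had arrays of opposite sign at 6 dpf, -0.50 and 0.42, as had A_15_P143476, with -0.20 and 0.22. The other 8 kept alpha features of cluster 2, of 5 genes, lay between 0.22 and 0.38 at 3 dpf and between 0.0040 and 0.12 at 6 dpf. At 3 dpf all 15 kept alpha features of cluster 2 were above 0 on both arrays, and at 6 dpf the 5 highest, from 0.29 to 0.41, were features of pcdh2ac. The other 2 features of pcdh2ac, at 0.0083 and -0.04, lay with or below the remaining alpha features. Neither the difference between the genes nor that between the stages was tested.

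**Figure D3:**
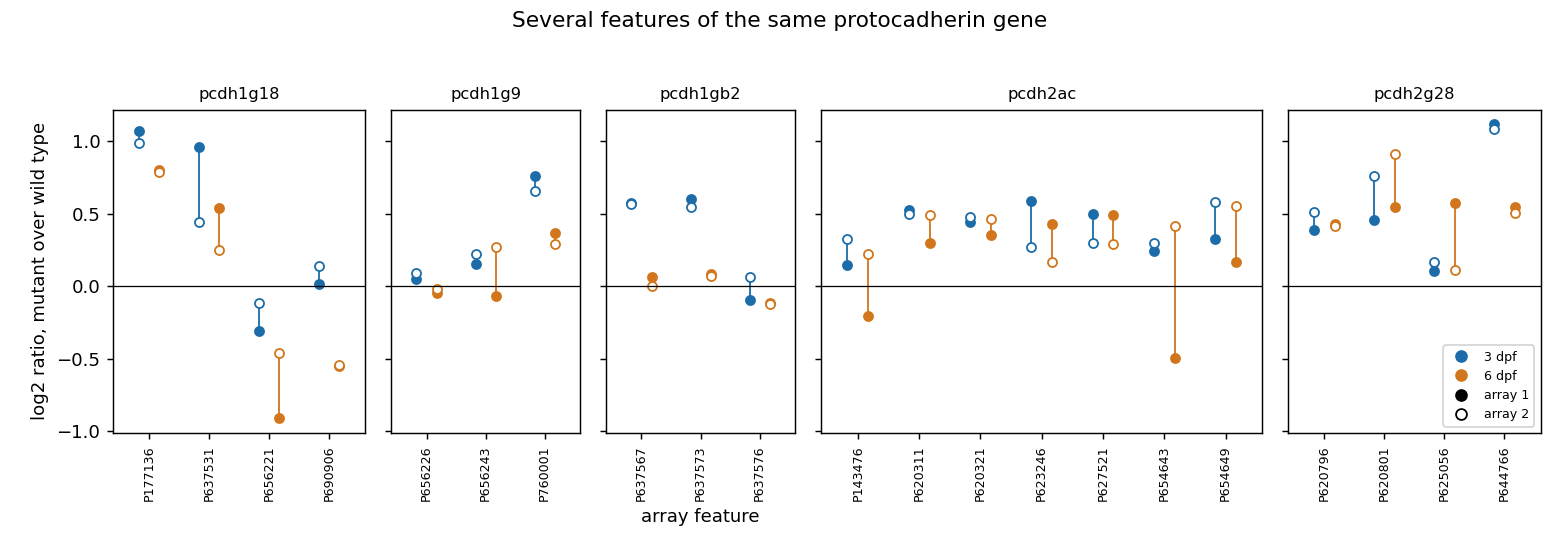
Log2 ratio of mutant over wild type (y axis) for each feature (x axis) of 5 genes read by several features. Blue points are 3 dpf and orange points 6 dpf, filled for array 1 and open for array 2; the features of pcdh1g18 lie on both sides of 0, while those of pcdh2g28 all lie above 0 at both stages.

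Of the 17 kept gamma features of cluster 2, 7 turned from above 0 on both arrays at 3 dpf to below 0 on both at 6 dpf. Leaving out pcdh2g20, pcdh2g28 and pcdh2g29, the remaining 9 kept 2g features, of 8 genes, ran from 0.16 to 0.45 at 3 dpf and from -0.33 to 0.02 at 6 dpf. Their medians were 0.28 and -0.26. This split was not set in advance and follows the ratios themselves, so these medians only describe it. All 17 kept 2g features had medians of 0.28 and -0.11. As examples outside the naming rule given below, pcdh2g4 and pcdh2g16 had the largest falls of these 9 features. The isoform pcdh2g4 read 0.17 and 0.40 at 3 dpf and -0.36 and -0.25 at 6 dpf. The isoform pcdh2g16 read 0.27 and 0.35 at 3 dpf and -0.28 and -0.23 at 6 dpf. The isoform pcdh2g5 read -0.0018 and 0.33 at 3 dpf and -0.25 and -0.30 at 6 dpf. Over both subclusters of gamma isoforms, 13 features were above 0 on both arrays at 3 dpf and below 0 on both at 6 dpf, where 4.93% of all features were. Of these 13, 6 were of 1g, 7 of 2g and 0 of 2a. Such shares depend on how many features began above 0. On both arrays of 3 dpf 43 of the 52 protocadherin features did, against 9140 of all 31046. Of those 9140, 1530 turned to below 0 on both arrays of 6 dpf. The 3 features of pcdh2g20 lay nearer 0, between -0.01 and 0.13 at 3 dpf and between -0.21 and 0.18 at 6 dpf.

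Along cluster 2 in the RefSeq gene order, measured genes with like ratios at 6 dpf mostly followed each other, though their ranges overlapped. At 3 dpf, apart from pcdh2g28 and pcdh2g29, their ratios overlapped as well, and the order was not tested. The genes pcdh2g4, pcdh2g20 and pcdh2ab11 have no place in that table. Without a feature on the array were pcdh2g2, pcdh2g9, pcdh2g13 and pcdh2g17. Between pcdh2ac and pcdh2ab2, the genes pcdh2ab3, pcdh2ab5, pcdh2ab7, pcdh2ab9, pcdh2ab10 and pcdh2ab12 had none either. The measured genes from pcdh2g16 to pcdh2g1 had ratios of 0.02 or less at 6 dpf. They were followed by pcdh2g29, pcdh2g28 and, after pcdh2g3, which had no feature, pcdh2ac, whose features mostly stayed above 0 at both stages. Beyond pcdh2ac came the alpha genes pcdh2ab2, pcdh2aa15, pcdh2aa3 and pcdh2aa1, with ratios from 0.0040 to 0.12 at 6 dpf. Within that range also lay A_15_P644756 of pcdh2g12 at 0.02 and A_15_P143476 of pcdh2ac at 0.0083, while A_15_P654643 of pcdh2ac was at -0.04. The feature of pcdh2g29 and A_15_P644766 of pcdh2g28 may read shared sequence.

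**Figure D4:**
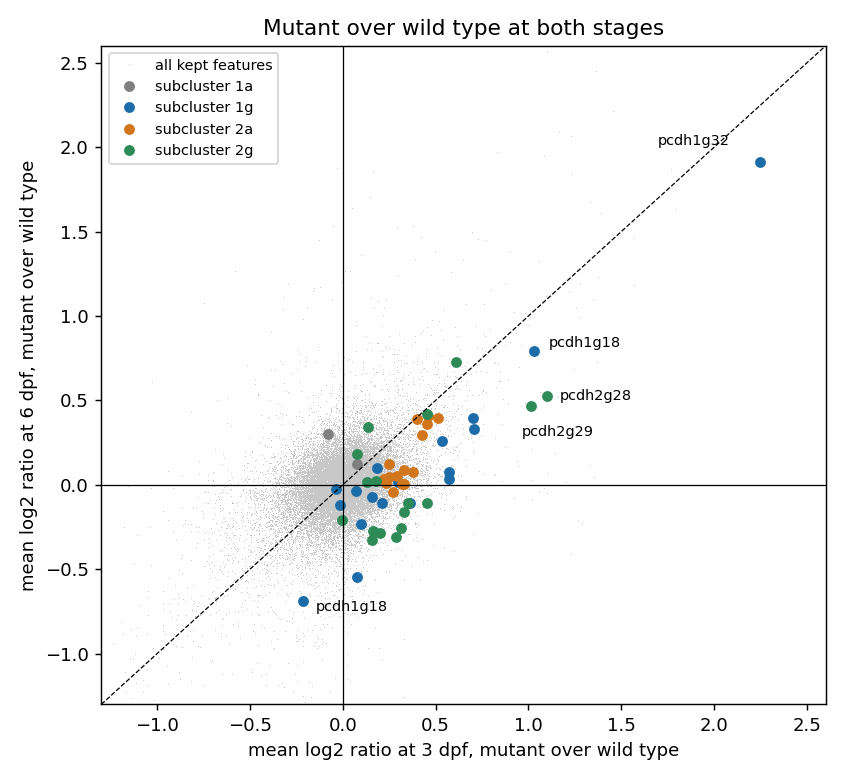
Mean log2 ratio of mutant over wild type at 3 dpf (x axis) against 6 dpf (y axis) for the clustered protocadherin features, coloured by subcluster, over all kept features in grey, with the dashed line where both stages are equal. The axes leave out the most extreme grey points; most protocadherin features lie below the dashed line, and pcdh1g32 stands apart at 2.25 and 1.91.

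Among the other gamma isoforms of cluster 1, pcdh1gb2 had 2 features that read high at 3 dpf and near 0 at 6 dpf. Feature A_15_P637567 read 0.58 and 0.57 at 3 dpf and 0.07 and 0.0033 at 6 dpf. Feature A_15_P637573 read 0.60 and 0.55 at 3 dpf and 0.08 and 0.07 at 6 dpf. The remaining feature, A_15_P637576, was at -0.01 and -0.12 on average. The gene pcdh1g9 was likewise divided, with 1 feature at 0.71 at 3 dpf and 0.33 at 6 dpf (adjusted p = 0.0839 by limma) and the other 2 at 0.07 and 0.19 at 3 dpf. The isoform pcdh1gb9 had means of 0.36 and -0.11.

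The gene pcdh1g1 was named after its values were seen, because it was measured in 1 genotype only. It was well above background on every array in the mutant and on 0 arrays in the wild type. It therefore passed the filter only through the genotype in which it read higher. It remained within the counts and medians given for the kept features, but its own ratio is not read as support. Its mutant log2 signal was 6.77 at 3 dpf against 6.23 measured in the wild type, a bound of 1.45-fold on the mean of the arrays. At 6 dpf it was 6.71 against 6.45, a bound of 1.2-fold on the mean, with array ratios of 0.11 and 0.41. It was not called over both stages (adjusted p = 0.119 by limma). In such bounds the wild-type signal counts as the higher of the measured value and the dimmest well-measured signal of its array. Here it was the measured value, so the bounds equal the plain mean ratios. The only alpha gene of cluster 1 on the array, pcdh1a4, had a bright feature with means of 0.08 at 3 dpf and 0.12 at 6 dpf. Its dim feature had means of -0.08 and 0.30, and was well above background on 0 of 2 arrays in the wild-type pool at 3 dpf. That feature passed the filter only through the mutant pool at 6 dpf, the pool in which it read highest.

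Most clustered protocadherin signals were higher at 6 than at 3 dpf. The stages were hybridised on separate arrays, so age cannot be told apart from the arrays. The limma test of age took the genotypes as the replicates of a stage and had 1 residual degree of freedom. The mean log2 change over both genotypes was above 0 for 50 of the 52 features, where it was above 0 for 48.8% of all features, and had a median of 0.30 against -0.01 for all features. None reached the size of 1 log2 asked of a call, so limma called 0 of 52, where it called 10.1% of all features. Without that size, 34 of the 52 passed an adjusted p of 0.05 as higher at 6 dpf, where 29.5% of all features did, and 0 as lower, where 31.4% did. This last count, a rule added after the data were seen, held 13 features of 1g, 8 of 2a, 13 of 2g and 0 of 1a.

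The largest changes with age were those of pcdh2g28, pcdh1g18, pcdh1gb2 and pcdh2g29. The feature A_15_P644766 of pcdh2g28 changed by 0.90 (SE 0.14, adjusted p = 0.00154 by limma), that is by 1.19 in the wild type and 0.62 in the mutant. Feature A_15_P690906 of pcdh1g18 changed by 0.87 (SE 0.14, adjusted p = 0.00236), by 1.18 in the wild type and 0.55 in the mutant. Features A_15_P637567 and A_15_P637573 of pcdh1gb2 both changed by 0.86 (adjusted p = 0.00155 and 0.00125). The feature of pcdh2g29 changed by 0.84 (adjusted p = 0.00181). Behind them came A_15_P760001 of pcdh1g9 with 0.74 (adjusted p = 0.00115) and pcdh1gb9 with 0.72 (adjusted p = 0.00229). Feature A_15_P177136 of pcdh1g18 changed by 0.60 (adjusted p = 0.00127), A_15_P644751 of pcdh2g12 by 0.57 (adjusted p = 0.00696) and pcdh2g5 by 0.56 (adjusted p = 0.00566).

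The change with age was smaller in the mutant pools for most of these features. This is the same measurement as the fall of the mutant over wild-type ratio from 3 to 6 dpf, which 46 of the 52 features had, where 50.9% of all features had it. The median change with age was 0.41 in the wild type and 0.22 in the mutant. In the wild type 5 features (9.62%) were at least 1 log2 higher at 6 dpf, where 5.31% of all features were, and in the mutant 0 were (4.62%). These 5 were of pcdh1gb2, pcdh1g18, pcdh2g28 and pcdh2g29, and those of pcdh2g28 and pcdh2g29 may read shared sequence. The gamma subclusters showed it most, with medians of 0.70 in the wild type and 0.24 in the mutant for 2g and of 0.53 and 0.28 for 1g, and subcluster 2a had 0.35 and 0.15. With 1 pool per genotype and stage, this difference between genotypes could not be tested.

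**Figure D5:**
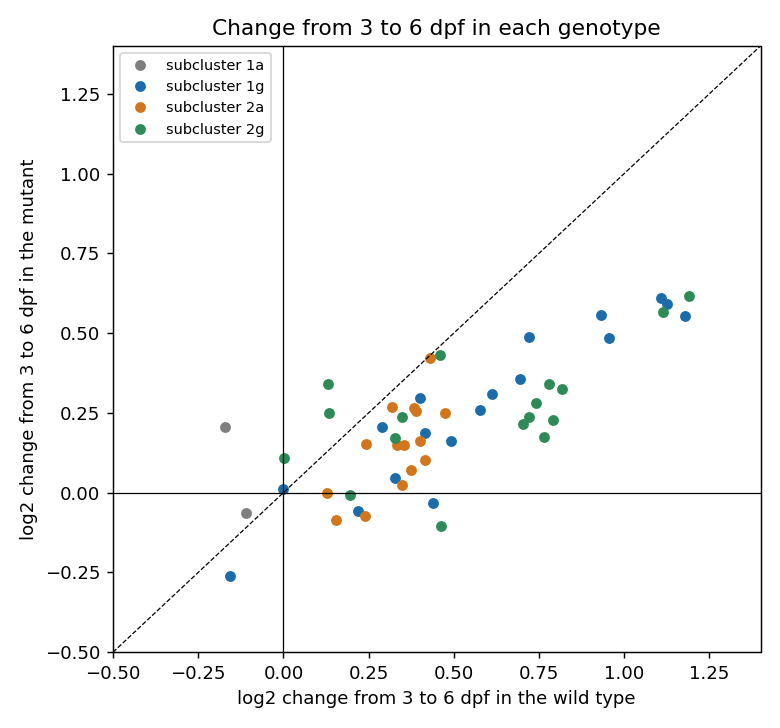
Log2 change from 3 to 6 dpf in the wild-type pools (x axis) against that in the mutant pools (y axis) for the 52 kept clustered protocadherin features, coloured by subcluster, with the dashed line where both are equal. All but 6 points lie below the dashed line, and none reaches 1 on the y axis while 5 do on the x axis.

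Related genes outside the clusters gave these values, with each gene taken at its brightest kept feature. Of 9 kept nonclustered protocadherins, the single-gene relatives outside the clusters, 0 were called for genotype in either direction, and their median was 0.07 at 3 dpf and 0.05 at 6 dpf. The highest at 3 dpf was pcdh18b at 0.33 ± 0.06 (SD, n = 2 arrays, adjusted p = 0.357 by limma). Of 21 kept genes of promoter choice and cluster chromatin, 0 were called in either direction. The insulator protein gene ctcf was at 0.01 and -0.19, and the DNA methyltransferase gene dnmt3ab had the highest ratio of that list, 0.32 and 0.52 (adjusted p = 0.0814 by limma). With age, dnmt1, dnmt3ba and dnmt3bb.1 of that list were called lower, by limma, with changes of -1.12, -1.41 and -1.18. Of 24 kept genes of signalling below the cytoplasmic domain, 0 were called for genotype and the GTPase gene rac1a was called lower with age, by -1.24. Among all 31046 features, limma called 1668 lower with age, and 10.1% in either direction. For genotype it called 0.673% of all features higher and 0.873% lower. In that list abi1a, a subunit of the WAVE actin regulator, stood highest at 3 dpf with 0.42 and had 0.30 at 6 dpf (adjusted p = 0.0998). Of the 6 genes of shedding and trafficking, 0 were called, and adam10a, a protease of cadherin ectodomains, was at 0.07 and -0.02. At an unadjusted p under 0.05 by limma, these lists held 1, 2, 4 and 0 genes in the order given. Of all 31046 features, 4232 had such a p.

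Markers of the cells that the embryos hold gave these values. Of 20 neuron markers, all kept, 0 were called for genotype, and their median was 0.07 at 3 dpf and 0.10 at 6 dpf, with ranges of -0.09 to 0.46 and -0.12 to 0.35. The 9 kept markers of radial glia and oligodendrocytes had medians of 0.01 and 0.15, and 0 were called. The 12 photoreceptor markers had medians of 0.22 and 0.57, with 2 past the size rule at 6 dpf and 0 called by limma. The 7 skeletal muscle markers had medians of -0.36 and -0.27, and 2 were called lower. The 4 hepatocyte markers had medians of -0.57 and 0.04, and the 4 kept erythroid markers -0.23 and 0.68, with 1 called higher. The 4 epidermis markers had medians of -0.09 and -0.22. Over all features, 0.219% passed the size rule as higher at 6 dpf, and limma called 0.673% higher and 0.873% lower for genotype. The neuron, glia and photoreceptor lists held 2, 1 and 8 genes at an unadjusted p under 0.05 by limma. Skeletal muscle had 4, hepatocytes 2, and erythroid and epidermis 1 each. Of all 31046 features, 4232 had such a p. What part the makeup of the pools had in the protocadherin ratios was not tested.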

How the data were processed

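RNA of mutant and wild-type pools was compared on 4 two-colour Agilent arrays, 2 dye-swapped arrays per stage. Per the file headers, the authors' intensities were extracted with Agilent Feature Extraction 10.5.1.1 (the submitters' processing notes name 8.5.1.1) and the array design names build danRer6 (Zv8). The deposited intensity values (median signal and background of each spot and dye) were used; the deposited processed intensity served as an alternative. The deposited log10 ratios were read only to check the authors' series table, whose log2 values matched 2 arrays and served as an alternative; the deposited score column of the first 3 dpf array did not match that array, and the first array's own ratio column, named a score for 9 shifted control spots, was not tested.

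Background was corrected with normexp (offset 50) and dyes with loess within arrays in limma 3.58.1 (R 4.3.3), control spots weighted 0, and channels were scaled with Aquantile. The arrays of a stage were averaged as 1 replicate. The genotype test was limma's on the mean ratio of each stage against 0, and that of age was limma's with genotype and stage terms over 4 pools (adjusted p under 0.05, for age also at least 1 log2), Benjamini-Hochberg over 31046 features. Both fits were tested on simulated data. The number of arrays limits the precision. Named were the features past the size rule or a test, the 10 largest by genotype and by age, the brightest of each subcluster and all features of those genes; exceptions are stated. Gene names are the files'; 46 of the 55 features matched RefSeq accessions, all under the same symbol. Members and lists were chosen with earlier results of these data known. Alternatives covered background, scaling, filters, 1 feature per gene, the size threshold, a trended prior and leaving out each array.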

Additional observations from a re-analysis of the deposited data

Results flagged for a closer look

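The 14 features below had both arrays of 3 dpf on one side of 0 and both arrays of 6 dpf on the other; the difference between the stages was not tested, since each stage is 1 pair of pools. The values are the mean log2 ratio of mutant over wild type at 6 dpf minus that at 3 dpf. In subcluster 2g, 7 features fell below 0: pcdh2g4 differed by -0.59, pcdh2g16 by -0.57, pcdh2g1 by -0.56, pcdh2g12 A_15_P644751 by -0.49, pcdh2g8 by -0.49, pcdh2g7 by -0.48 and pcdh2g6 by -0.46. In subcluster 1g, 6 features fell below 0: pcdh1g18 A_15_P690906 differed by -0.62, pcdh1gb9 by -0.47, pcdh1gc5 by -0.33, pcdh1g31 by -0.32, pcdh1g30 by -0.23 and pcdh1g9 A_15_P656226 by -0.11. Only the dim feature A_15_P654486 of pcdh1a4 went the other way among these 14, by 0.38. It passed the filter only through the mutant pool at 6 dpf, the pool in which it read highest, so its turn is not read as support. Of all kept features, 4.93% were above 0 on both arrays at 3 dpf and below 0 on both at 6 dpf. More of the protocadherin features could turn this way, since 43 of the 52 began above 0 on both arrays, against 9140 of all 31046. No group here holds enough samples to look for a single array standing apart.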

How the results depend on the processing

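No paired analysis was possible because each genotype and stage is 1 pool and both genotypes of a stage already share each array. The number of protocadherin features past the size rule at 3 dpf, 4 in the report, was 2 without background subtraction and 7 with the rule at 1.5-fold; at 6 dpf, 1 in the report, it was 5 with Agilent's processed signals, 1 of them lower, and 4 at 1.5-fold, 1 of them lower. Leaving out an array gave 3 to 4 and 1. The 4 genotype calls became 7 with offset 10, 1 with Agilent's processed signals, 12 without the filter on dim spots, 9 with only features above background in every channel, 1 with 1 feature per gene and 0 with a trended prior. Leaving out an array gave 5 to 13, the 13 without the second 3 dpf array, when 1 was lower; each array left out leaves 1 dye orientation. The cause was not tested, except that the filters change how many features are tested. Of the 4 called features, pcdh1g32 kept its call in 11 of 12 alternatives and pcdh2g28 A_15_P644766 in 7 of 12, and without the first 6 dpf array the latter had an adjusted p of 0.0504. For age, 0 of 52 were called in each alternative run with the size of 1 log2, and 34 without it, which was added after the data were seen. Median ratios that moved beyond the arrays' SD were that of 1g at 3 dpf (0.25) to 0.45 and of 2a at 3 dpf (0.33) to 0.35 with Agilent's processed signals, and of 2a at 3 dpf to 0.35 with offset 10 and 0.30 with median centring. Over the arrays left out, medians ran from 0.22 to 0.38 for 1g, 0.31 to 0.34 for 2a and 0.22 to 0.38 for 2g at 3 dpf, and from -0.033 to -0.0091, 0.071 to 0.16 and -0.12 to -0.071 at 6 dpf. Over all features, counts past 1.5 times the report's were: at 3 dpf (94) 177 with offset 10, 458 with processed signals, 62 with 1 feature per gene, 530 at 1.5-fold and 158 without the second 3 dpf array; at 6 dpf (152) 266, 539 and 668 with offset 10, processed signals and 1.5-fold; for genotype (480) 315 without background subtraction, 84 with processed signals, 778 unfiltered, 218 with 1 feature per gene, 0 trended and 889 without the second 3 dpf array; and for age (3129) 7331 with processed signals, 2010 with 1 feature per gene and 18893 without the size. No named ratio past the size rule changed sign in any alternative run.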
